A study of Mus musculus with 12 samples.

Results

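The 9 genes described here are 7 heat shock genes (Hspa1a, Hspa1b, Hsph1, Hspa8, Hsp90aa1, Dnajb1 and Hspb1) and 2 cold-inducible genes (Cirbp and Rbm3). They were chosen by name, as genes whose RNA follows body temperature over the day in rodents, and were found through their Ensembl identifiers. All 9 were among the 57180 genes counted in kidney and among the 17163 genes kept by the filter on low counts. The comparison of control and treated mice over these genes serves as a check on temperature or on the phase of the day.

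The libraries were made from poly(A) RNA of kidneys of male C57BL/6J mice that were 60 days old at the start. The 4 mice of the Control group received intraperitoneal injections of placebo, and the 4 mice of the 10CBD group and the 4 mice of the 20CBD group received cannabidiol (CBD), a compound of the hemp plant, once a day at 10 and 20 mg/kg for 28 days. The vehicle was saline with 2% Tween 80 in a volume of 200 µl, and all mice were kept at 22 ± 2 °C in cycles of 12 h light and 12 h dark. Each library stands for 1 mouse, and the time of day at which the kidneys were taken is not given in the sources used here.

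Heat shock proteins are molecular chaperones that help other proteins to fold. Their genes are switched on by heat shock factor 1, which binds repeats of the letters GAA and TTC in their promoters, and in tissues of mice they also follow the daily rise and fall of body temperature. The RNA-binding proteins Cirbp and Rbm3 behave in the opposite way, as their RNA increases when cells are cooled slightly. Cirbp is known to bind clock mRNAs and to support the amplitude of the cellular clock.

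The promoters of Hspa1a, Hspa1b and Hsph1 are shown because the first 2 genes, as counted, varied together across mice and Hsph1 was the member whose groups did not overlap. Each window runs from 250 bases before to 50 bases after the start of transcription on the strand of the gene (RefSeq, GRCm38.p6), at chr17:34972107-34972406 for Hspa1a, chr17:34959189-34959488 for Hspa1b and chr5:149636287-149636586 for Hsph1, all on the minus strand. Capitals mark matches to the heat shock element letters GAANNTTC and TTCNNGAA and to the E-box CACGTG, the site of the clock proteins Bmal1 and Clock.

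Hspa1a promoter: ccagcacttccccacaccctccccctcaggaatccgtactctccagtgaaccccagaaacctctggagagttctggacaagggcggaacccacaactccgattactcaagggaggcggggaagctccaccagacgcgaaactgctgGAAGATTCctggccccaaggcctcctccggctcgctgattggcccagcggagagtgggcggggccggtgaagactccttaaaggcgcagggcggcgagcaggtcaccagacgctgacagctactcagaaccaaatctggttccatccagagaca
Hspa1b promoter: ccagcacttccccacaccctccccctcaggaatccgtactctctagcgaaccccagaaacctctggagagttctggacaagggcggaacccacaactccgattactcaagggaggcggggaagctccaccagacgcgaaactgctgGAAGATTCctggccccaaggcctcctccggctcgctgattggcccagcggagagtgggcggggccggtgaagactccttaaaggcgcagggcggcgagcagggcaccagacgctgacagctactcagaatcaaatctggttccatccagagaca
Hsph1 promoter: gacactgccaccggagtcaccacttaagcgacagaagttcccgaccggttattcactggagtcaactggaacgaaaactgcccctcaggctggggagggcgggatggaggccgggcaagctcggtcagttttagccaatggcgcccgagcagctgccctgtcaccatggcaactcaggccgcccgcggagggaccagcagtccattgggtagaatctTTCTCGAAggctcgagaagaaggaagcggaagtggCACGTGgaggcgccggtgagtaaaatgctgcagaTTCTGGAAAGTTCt

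The windows of Hspa1a and Hspa1b differed at 4 of 300 bases, and both held 1 heat shock element match (GAAGATTC), which began at position -104 from the start. Hsph1 held 1 GAANNTTC match and 2 TTCNNGAA matches, of which the matches at positions 37 and 42 overlapped, and an E-box at position 3. Of the other members found in the promoter table, Hspb1 had GAANNTTC matches at positions -117 and -97, and Dnajb1 and Cirbp had no match in their windows. Both strands were searched, which for these palindromic letters gives the same matches. Among 32851 promoter windows of 300 bases, 7.86% held GAANNTTC, 8.52% held TTCNNGAA, 15.1% held either, and 7.15% held CACGTG. Hspa8, Hsp90aa1 and Rbm3 were not in the promoter table, which matched 6 of the 9 members.

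The total counted on genes lay between 15417867 and 23532088 per library. A member was covered by 39 to 50362 counts in a library, with the smallest counts for Hspb1 and Hspa1a, and levels are given below as CPM (counts scaled to a fixed library size) after TMM normalization, which scales the libraries to a common composition. Mitochondrial genes took 3.53% to 23.4% of the counts, and their share was under 10% in 4 libraries, which were Control replicate 2 (5.77%), 10CBD replicate 1 (3.53%), 10CBD replicate 3 (4.55%) and 20CBD replicate 3 (5.54%). Because these libraries stood apart and were unevenly divided over the groups, results are also given without them. The markers of kidney segments were detected in all libraries, and the summed level of 12 proximal tubule genes was between 10372 and 12572 CPM in the Control group, between 9191 and 10555 CPM in the 10CBD group and between 8766 and 9454 CPM in the 20CBD group. The proximal tubule sums of the 20CBD group therefore lay below all those of the Control group. In whole tissue, fewer cells of a type and less RNA per cell cannot be told apart.

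When levels were expressed per kilobase of the canonical transcript, so that genes of different length can be compared, the constitutive chaperone Hspa8 was the most abundant member, with 835 ± 87.6 CPM per kb (SD, n = 12). It was followed by the inducible cytosolic chaperone Hsp90aa1 (119 ± 41.5 CPM per kb), Cirbp (89.6 ± 38.0 CPM per kb) and Rbm3 (27.2 ± 4.79 CPM per kb). Before division by length the mean was 118 CPM for Cirbp and 136 CPM for Rbm3, whose canonical transcripts have 1321 and 5007 bases. The order of these 2 genes therefore depends on the length used. The disaggregase cofactor Hsph1 had 11.7 ± 2.27 CPM per kb, the Hsp70 co-chaperone Dnajb1 6.38 ± 0.581 CPM per kb and the small heat shock protein gene Hspb1 3.91 ± 1.03 CPM per kb. The stress-inducible Hsp70 genes were lowest as counted, with 3.01 ± 1.03 CPM per kb for Hspa1b and 1.34 ± 0.351 CPM per kb for Hspa1a. Of their stretches of 150 bases, 40.5% in Hspa1b and 38.1% in Hspa1a are shared exactly with the other gene. If reads of these stretches were not counted, both values are too low, so the place of these genes in the order is uncertain. The ranges of 4 pairs of neighbours in this order overlapped over the 12 libraries. They were Hsp90aa1 and Cirbp, Hsph1 and Dnajb1, Dnajb1 and Hspb1, and Hspb1 and Hspa1b. Within single libraries Hsp90aa1 was above Cirbp in 10 of 12 and Hspb1 above Hspa1b in 10 of 12, while Hsph1 was above Dnajb1, and Dnajb1 above Hspb1, in 12 of 12.

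**Figure D1:**
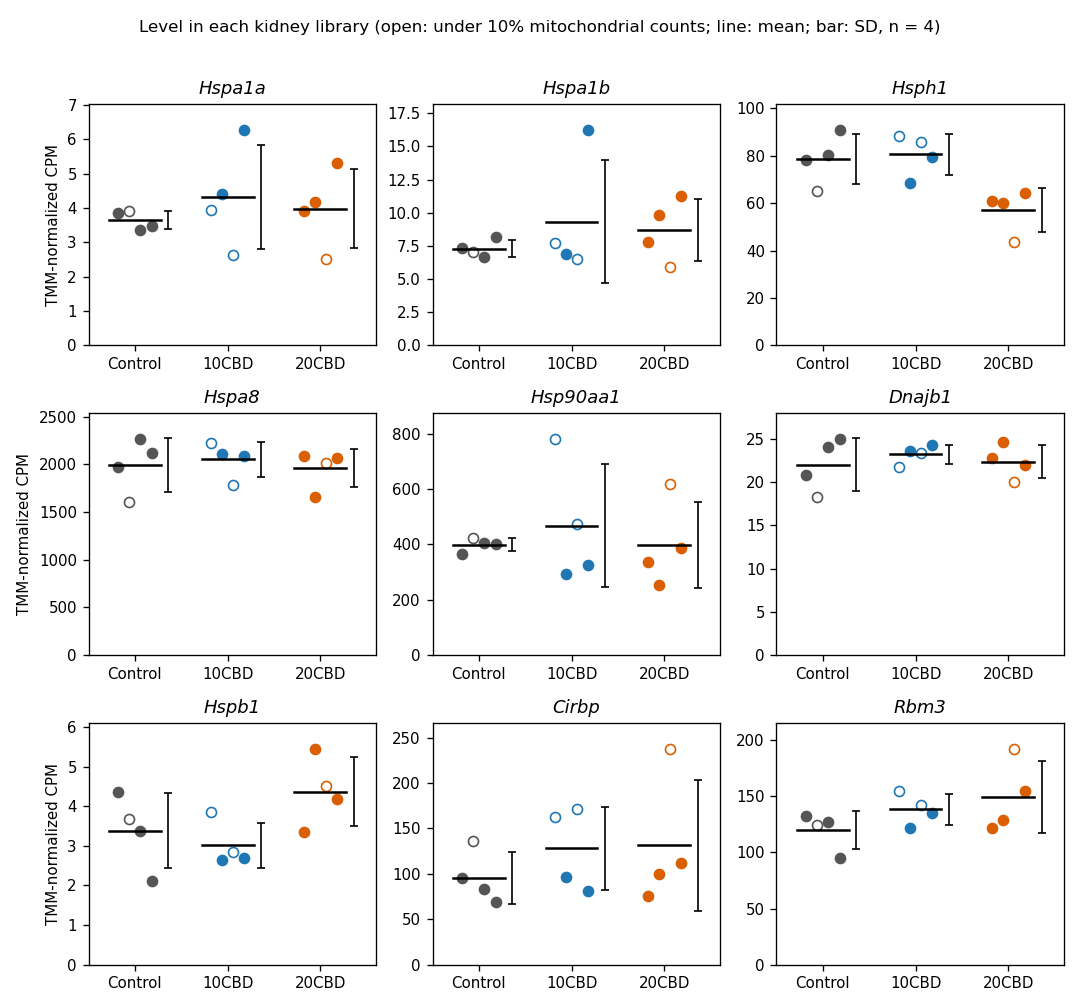
Level of each member in TMM-normalized CPM (y axis, from 0) in the 4 libraries of the Control, 10CBD and 20CBD groups (x axis); each circle is 1 mouse, open circles are libraries with under 10% mitochondrial counts, horizontal lines are group means and bars are SD. The 20CBD libraries of Hsph1 lay between 43.6 and 64.2 CPM, below all 8 others, while the groups overlapped for the other 8 members in each comparison with the Control group.

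None of the 9 members passed the test at either dose or between the doses (edgeR's quasi-likelihood test, Benjamini-Hochberg adjusted p under 0.1). The same count of 0 was obtained with DESeq2 and with limma-voom. Of all 17163 genes tested, 5 were called at 10 mg (0.0291%), 52 at 20 mg (0.303%) and 0 between the doses (0%), where DESeq2 called 12. At an unadjusted p under 0.05, 0 of the 9 members passed at 10 mg, 1 at 20 mg (Hsph1) and 2 between the doses (Hsph1 and Hspb1), beside 5.67%, 8.45% and 6.31% of all genes. The groups did not overlap for 0, 1 and 1 of the 9 members (Hsph1 in both cases), beside 3.19%, 5.3% and 3.1% of all genes. The direction was upward for 8 of the 9 members at 10 mg and for 6 of 9 at 20 mg, with a median log2 fold change of 0.21 and 0.12, while the median over all genes was 0.01 at both doses and 52.3% and 52.5% of all genes were upward. Between the doses 3 of 9 members were upward and 6 downward, with a median of -0.07, beside 49.4% of all genes upward. The comparisons share mice, both doses being set against the same Control mice.

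**Figure D2:**
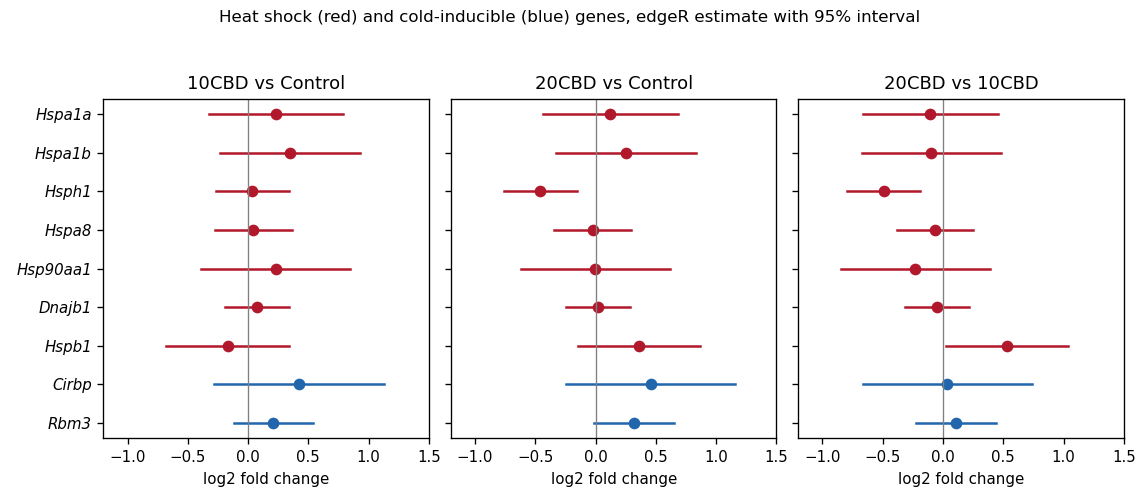
Log2 fold change (x axis) of each member (y axis) in the 3 comparisons, as estimated by edgeR over 12 libraries; dots are estimates and lines are 95% intervals, with heat shock genes in red and cold-inducible genes in blue. Every interval of the 10CBD comparison includes 0, and the intervals that lie to 1 side of 0 are those of Hsph1 in both comparisons of the 20CBD group and of Hspb1 between the doses.

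Hsph1, which encodes Hsp105, a nucleotide exchange factor that works with Hsp70, was the member with the clearest difference between groups. In the Control mice its level was 78.3, 65.0, 80.2 and 91.0 CPM, in the 10CBD mice 88.4, 68.8, 85.7 and 79.5 CPM, and in the 20CBD mice 61.0, 60.2, 43.6 and 64.2 CPM. All 4 mice of the 20CBD group were thus below all 8 other mice, and the Control and 10CBD groups overlapped. At 20 mg the log2 fold change against the Control group was -0.46 ± 0.14 (SE; 95% interval -0.76 to -0.15), or 0.728-fold. This difference did not pass the test across all genes (edgeR, adjusted p = 0.371), and Hsph1 ranked at position 278 of the genes by p. An exact two-sided permutation test of this gene alone gave p = 0.0286, the smallest value that 70 arrangements of 4 and 4 mice allow. Groups that do not overlap give this value by construction, so the test adds nothing to the separation described above. At 20 mg 5.3% of all genes did not overlap. Against the 10CBD group the log2 fold change was -0.49 ± 0.14 (95% interval -0.80 to -0.19; edgeR, adjusted p = 0.758). At 10 mg it was 0.04 ± 0.14 (95% interval -0.27 to 0.34; adjusted p = 0.981).

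The lower level of Hsph1 in the 20CBD group was also seen without the 4 libraries of low mitochondrial share. It was then 83.2 ± 6.86 CPM in the Control group (SD, n = 3), 74.1 ± 7.58 CPM in the 10CBD group (n = 2) and 61.8 ± 2.10 CPM in the 20CBD group (n = 3). The log2 fold change at 20 mg without these libraries was -0.43 ± 0.11 (adjusted p = 0.158), and with each of the 12 libraries left out in turn it ranged from -0.54 to -0.35. Between the doses it was reduced to -0.26 ± 0.12 without these libraries. With the mitochondrial share as a covariate, 2 of the 9 members were called at 20 mg, beside 5.45% of all genes. They were Hsph1, with a log2 fold change of -0.47 ± 0.13 (adjusted p = 0.0582), and Cirbp, with 0.52 ± 0.14 (adjusted p = 0.0547). The part of the proximal tubule sum given above in the level of Hsph1 was not tested.

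Hspa1a and Hspa1b, the stress-inducible Hsp70 genes, lie next to each other on chromosome 17 (GRCm39, 35188166 to 35191132 and 35175412 to 35178214). Their annotated transcripts were 83.8% identical, and 38.1% of the stretches of 150 bases in Hspa1a and 40.5% of those in Hspa1b were shared exactly. Reads of these stretches fit both genes, and how they were counted is not given in the sources used here. The levels of both genes are therefore uncertain, and both are too low if such reads were left out. Hspa1a had 3.86, 3.91, 3.37 and 3.48 CPM in the Control mice, 3.93, 4.42, 2.62 and 6.28 CPM in the 10CBD mice and 3.92, 4.19, 2.52 and 5.31 CPM in the 20CBD mice. The groups overlapped, and the treated groups held both the highest and the lowest values. Hspa1b had 7.35, 7.01, 6.65 and 8.21 CPM in the Control mice, 7.69, 6.86, 6.51 and 16.3 CPM in the 10CBD mice and 7.79, 9.82, 5.94 and 11.2 CPM in the 20CBD mice. A single mouse, 10CBD replicate 4, had the highest level of both genes.

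For Hspa1a the log2 fold change was 0.23 ± 0.26 at 10 mg and 0.12 ± 0.26 at 20 mg (edgeR, adjusted p = 0.934 and 0.941). For Hspa1b it was 0.35 ± 0.27 and 0.25 ± 0.27 (adjusted p = 0.906 and 0.865). Their intervals at 20 mg, from -0.43 to 0.68 and from -0.33 to 0.83, leave room for differences in both directions. Without 10CBD replicate 4, the log2 fold change of Hspa1b at 10 mg was -0.06 and that of Hspa1a was -0.01.

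Hspa8, the constitutive Hsc70 chaperone, Hsp90aa1 and Dnajb1, which delivers clients to Hsp70, are members of the general folding machinery of the cytosol. Hspa8 had 1970, 1605, 2262 and 2122 CPM in the Control mice, 2226, 2108, 1787 and 2082 CPM in the 10CBD mice and 2090, 1661, 2011 and 2067 CPM in the 20CBD mice. Dnajb1 had 20.9, 18.2, 24.1 and 25.0 CPM in the Control mice, 21.7, 23.6, 23.4 and 24.3 CPM in the 10CBD mice and 22.8, 24.7, 20.0 and 22 CPM in the 20CBD mice. Both genes overlapped between all groups. At 20 mg the log2 fold change was -0.02 ± 0.15 for Hspa8 (95% interval -0.34 to 0.29) and 0.02 ± 0.12 for Dnajb1 (95% interval -0.24 to 0.29). At 10 mg the values were 0.04 ± 0.15 and 0.08 ± 0.12, and the adjusted p-values of these genes at both doses were at least 0.949 (edgeR).

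Hsp90aa1 varied more widely within the treated groups. It had 366, 423, 406 and 401 CPM in the Control mice, 780, 291, 473 and 325 CPM in the 10CBD mice and 334, 254, 618 and 387 CPM in the 20CBD mice. The highest values were those of the 4 libraries of low mitochondrial share, at 423 to 780 CPM, while the 8 others lay between 254 and 406 CPM. The log2 fold change of Hsp90aa1 was 0.23 ± 0.29 at 10 mg and -0.0033 ± 0.29 at 20 mg (edgeR, adjusted p = 0.938 and 0.998). Without the 4 libraries it was -0.35 at 10 mg and -0.27 at 20 mg, so that the direction at 10 mg depended on them, and without 10CBD replicate 1 alone it was -0.14 at 10 mg. Without all 4 libraries of low share its group means were 391 ± 22.1, 308 ± 23.6 and 325 ± 67.1 CPM.

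Hspb1, which encodes the small chaperone Hsp27, was a member of low level and the one with a negative estimate at 10 mg. It had 4.37, 3.67, 3.37 and 2.12 CPM in the Control mice, 3.84, 2.64, 2.85 and 2.7 CPM in the 10CBD mice and 3.34, 5.45, 4.5 and 4.18 CPM in the 20CBD mice. The 20CBD mice were mostly higher than the 10CBD mice, but the groups overlapped. The log2 fold change was -0.17 ± 0.24 at 10 mg, 0.36 ± 0.24 at 20 mg and 0.53 ± 0.24 between the doses (edgeR, adjusted p = 0.943, 0.742 and 0.782). With 39 to 104 counts per library, Hspb1 was among the members with the least depth.

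The cold-inducible genes were higher on average in both treated groups, but neither passed the test without a covariate. Cirbp had 95.7, 136, 82.8 and 68.6 CPM in the Control mice, 163, 96.9, 172 and 80.6 CPM in the 10CBD mice and 75.8, 100, 238 and 112 CPM in the 20CBD mice. The libraries with the highest Cirbp in each group were those of low mitochondrial share. The log2 fold change was 0.42 ± 0.33 at 10 mg and 0.46 ± 0.33 at 20 mg (edgeR, adjusted p = 0.906 and 0.776). Without 20CBD replicate 3, which had 238 CPM, it was 0.00041 at 20 mg. Without the 4 libraries of low share, the means of Cirbp were 82.4 ± 13.6, 88.8 ± 11.6 and 95.8 ± 18.3 CPM in the Control, 10CBD and 20CBD groups, and the log2 difference at 20 mg was 0.22 ± 0.15 (adjusted p = 0.706). With the mitochondrial share as a covariate, as given above, Cirbp was called at 20 mg (0.52 ± 0.14, adjusted p = 0.0547).

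Rbm3 had 133, 124, 127 and 94.9 CPM in the Control mice, 155, 122, 142 and 135 CPM in the 10CBD mice and 122, 129, 193 and 155 CPM in the 20CBD mice. The groups overlapped, with the lowest value in a Control mouse and the highest in 20CBD replicate 3. The log2 fold change was 0.21 ± 0.16 at 10 mg and 0.32 ± 0.16 at 20 mg (edgeR, adjusted p = 0.897 and 0.609), and the interval at 20 mg ran from -0.01 to 0.65. Without the 4 libraries of low share the means were 118 ± 20.5, 129 ± 9.23 and 135 ± 17.7 CPM, and the log2 fold change at 20 mg was 0.19 ± 0.14.

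**Figure D3:**
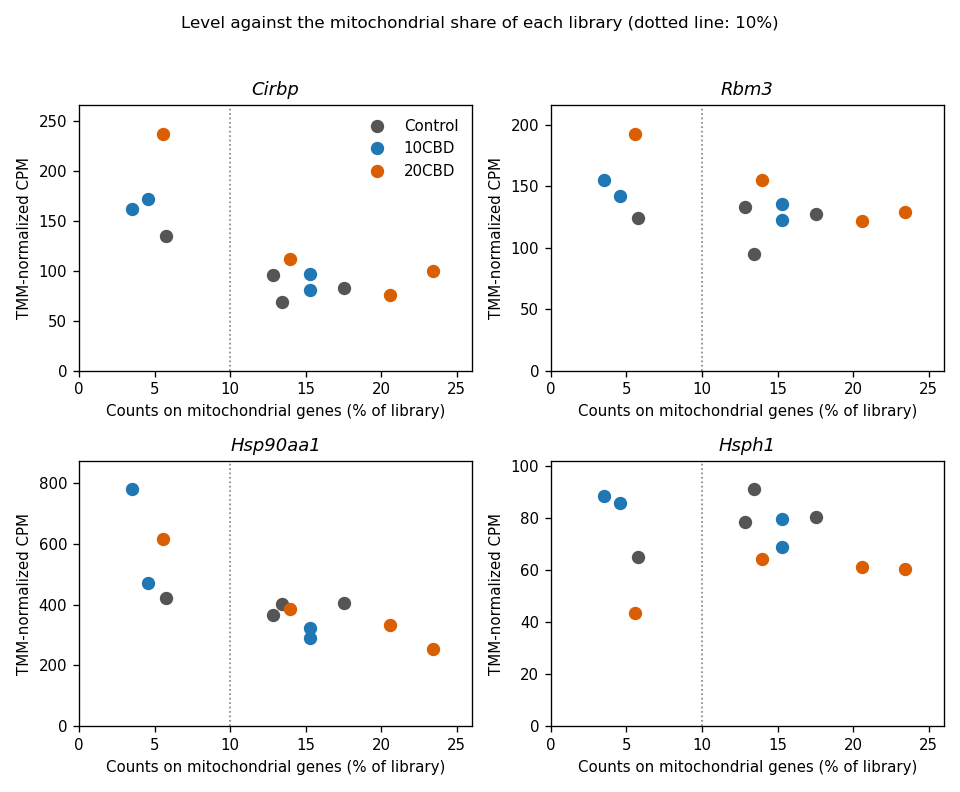
Level of Cirbp, Rbm3, Hsp90aa1 and Hsph1 in TMM-normalized CPM (y axes, from 0) against the share of counts on mitochondrial genes in percent (x axes) in 12 libraries, coloured by group; the dotted line marks 10%. Cirbp and Hsp90aa1 were higher in all 4 libraries to the left of the line than in all 8 to the right, and the 20CBD libraries of Hsph1 were low on both sides of it.

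The mitochondrial share separated 2 of the 9 members. Cirbp was at 136 to 238 CPM in the 4 libraries of low share and at 68.6 to 112 CPM in the 8 others, and Hsp90aa1 was separated as given above. Of all genes tested, 6.29% were higher in all 4 libraries of low share than in all others and 6.65% were lower, so many other genes behaved in the same way. In the same 4 libraries between 16.1% and 19.9% of the reads were assigned to no gene, against 12.1% to 16.3% in the others. Whether these reads lay within introns or between genes cannot be told from the counts. Within the 8 other libraries, none of the 9 members was correlated with the share after adjustment (permutation test, adjusted p at least 0.463). For Cirbp, Pearson's r was -0.0097 in these 8 libraries.

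Covariation between mice was measured for the 36 pairs of members. For Hspa1a and Hspa1b, Pearson's r of log2 CPM was 0.849 over 12 mice (permutation test, p = 2e-04, adjusted p = 0.0072), and Spearman's rho was 0.769 (p = 0.00479, adjusted p = 0.165). For Cirbp and Rbm3, r was 0.806 (p = 0.001, adjusted p = 0.018) and rho 0.727 (p = 0.00919, adjusted p = 0.165). These 2 pairs were the ones with an adjusted p under 0.05 for r, and no pair reached it for rho. Some reads fit both Hspa1a and Hspa1b, as given above, and the part of such reads in the r of this pair was not tested. Without the 2 libraries farthest from the median, r was 0.694 for Hspa1a and Hspa1b and 0.665 for Cirbp and Rbm3. After removal of the group means it was 0.850 and 0.802, and in the 8 libraries with at least 10% mitochondrial counts 0.868 and 0.778, where the adjusted p-values were 0.266 and 0.296. Hsp90aa1 and Cirbp both fell into separate clusters by mitochondrial share, so no pooled r is given for this pair, and within the 8 libraries its r was -0.323.

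**Figure D4:**
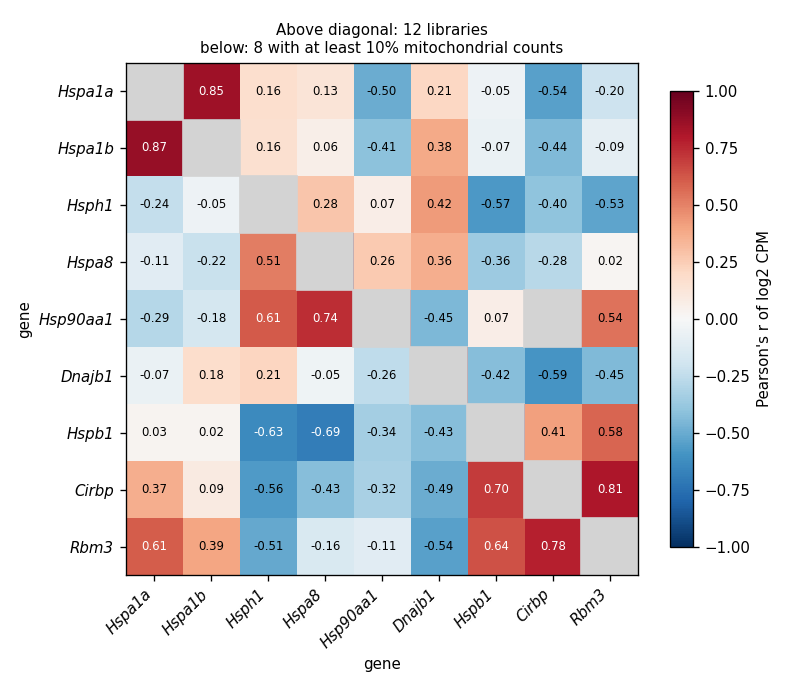
Pearson's r of log2 CPM between members (both axes list the 9 genes), over 12 libraries above the diagonal and over the 8 libraries with at least 10% mitochondrial counts below it; the colour scale runs from -1 (blue) to 1 (red), and grey cells hold no value. Hspa1a with Hspa1b and Cirbp with Rbm3 are high on both sides of the diagonal.

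The genes most like each member were sought among all genes tested, by Pearson's r of log2 CPM over the 12 libraries, as a description. For Hsph1 they were Srebf2 (0.941), a transcription factor of cholesterol synthesis, Lrsam1 (0.925) and Kank1 (0.918). After removal of the group means, r with Hsph1 was 0.925, 0.826 and 0.888 for these genes. Cirbp was followed most closely by Vamp8, Arf5 and S100a13, with r between 0.970 and 0.971, and Rbm3 by Zfas1 (0.955), Supt4a (0.942) and Gm15417 (0.940). Those of Hsp90aa1 were Larp7 (0.972), Ddx24 (0.960) and Psmd7 (0.952), a subunit of the proteasome. Hspa8 was closest to Cycs (0.852), which encodes cytochrome c, Zfp638 (0.846) and Cwc22 (0.821), and Dnajb1 to Clmp (0.933), Ints6 (0.897) and Adgre5 (0.897). The genes closest to Hspb1 were Junb (0.887), an immediate early gene, Clec5a (0.861) and Iscu (0.860). Hspa1a was closest to Gm15446 (0.908), AI661453 (0.894) and Zfp605 (0.885), and Hspa1b to C230013L11Rik (0.850), Hspa1a itself and Faap24 (0.843). Library composition is shared by all these values. For Cirbp and Hsp90aa1, r over the 12 libraries includes their split by mitochondrial share, which 6.29% of all genes had in the same direction. Within the 8 other libraries r with these genes was not computed. As the highest values among all genes tested over 12 libraries, all of them are raised by selection.

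The other genes of the heat shock system gave the same count of called genes. Of 41 other heat shock and chaperone genes, all of which were tested, 0 were called at 10 mg, at 20 mg or between the doses. An unadjusted p under 0.05 in edgeR was found for 1, 3 and 3, beside 5.67%, 8.45% and 6.31% of all genes. At 10 mg 21 were higher and 20 lower than in the Control group, and at 20 mg 13 were higher and 28 lower, with a median log2 fold change of -0.08. Between the doses 10 were higher and 31 lower, with a median of -0.11. Of all genes, 52.3%, 52.5% and 49.4% were upward in the 3 comparisons. The 3 genes with an unadjusted p under 0.05 in edgeR at 20 mg were Fkbp5, Serpinh1 and Dnaja1. The collagen chaperone Serpinh1 was at -0.35 ± 0.12 on the log2 scale (adjusted p = 0.391) and the Hsp70 co-chaperone Dnaja1 at -0.32 ± 0.12 (adjusted p = 0.466). The 20CBD and Control mice did not overlap for 5 of the 41 genes, beside the 5.3% of all genes given above, and the 20CBD mice were the lower ones for all 5, which were Hspd1, Dnaja1, Stip1, Chordc1 and Serpinh1. These genes were named for these counts after their values were seen.

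Fkbp5, an Hsp90 co-chaperone that glucocorticoids induce, had the smallest p of that list at both doses. Its level was 59.5 ± 14.1 CPM in the Control group, 85.6 ± 16.6 CPM in the 10CBD group and 97.8 ± 16.6 CPM in the 20CBD group (SD, n = 4). The log2 fold change was 0.52 ± 0.18 at 10 mg (edgeR, adjusted p = 0.812) and 0.72 ± 0.18 at 20 mg (adjusted p = 0.239). At 20 mg its adjusted p was 0.0512 with DESeq2, 0.0039 with the mitochondrial share as a covariate and 0.0222 without the 4 libraries of low share, so its call depends on the method.

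Of 6 genes of heat shock transcription factors and their binding proteins, 5 were tested and 0 were called. Hsf1, the factor that drives the heat shock response, had 18.1 ± 2.13 CPM in the Control group, 15.0 ± 2.84 CPM in the 10CBD group and 15.1 ± 3.22 CPM in the 20CBD group, with a log2 fold change of -0.28 ± 0.17 and -0.26 ± 0.18 (adjusted p = 0.893 and 0.748). Of 18 RNA-binding and splicing genes listed for a link to temperature, 0 were called in each comparison. Whether the RNA level of each follows temperature was not tested, and counts per gene do not show changes in splicing. An unadjusted p under 0.05 in edgeR was found for 1, 2 and 3, beside 5.67%, 8.45% and 6.31% of all genes. The smallest p was that of the splicing factor Tra2a at 10 mg (log2 fold change 0.30 ± 0.10, adjusted p = 0.812) and of the kinase Clk4, which phosphorylates splicing factors, at 20 mg (0.25 ± 0.11, adjusted p = 0.541).

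The clock genes, which were listed to set the phase of the day beside the temperature genes, showed many calls. Of 19 clock genes, 3 were called at 10 mg and 10 at 20 mg, beside 0.0291% and 0.303% of all genes. Between the doses 0 were called, and 6 had an unadjusted p under 0.05 in edgeR, beside 6.31% of all genes. Dbp, an output gene of the clock, had 2.36 ± 0.703 CPM in the Control group, 15.7 ± 2.81 CPM in the 10CBD group and 24.0 ± 2.22 CPM in the 20CBD group, and its log2 fold change was 2.75 ± 0.21 and 3.35 ± 0.21, a rise at both doses (adjusted p = 1.88e-05 and 1.31e-06). Per3 also rose at both doses, by 1.08 ± 0.15 and 1.39 ± 0.15, and Npas2, which can replace Clock, fell, with -1.42 ± 0.23 and -1.44 ± 0.23. At 20 mg the repressors Bhlhe41 (1.46), Nr1d1 (1.33), Nr1d2 (0.80) and Ciart (1.4) rose as well, and Nfil3 (-1.30), Bmal1 (-1.21) and Cry1 (-1.32) fell. Most members of this list had already been seen to change in these data.

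Per2 is a clock gene whose RNA also follows body temperature. It had 9.05 ± 1.67 CPM in the Control group, 12.5 ± 2.08 CPM in the 10CBD group and 15.2 ± 2.67 CPM in the 20CBD group, with a log2 fold change of 0.47 ± 0.18 (edgeR, adjusted p = 0.812) and 0.75 ± 0.18 (adjusted p = 0.168). The 20CBD mice were above all Control mice, but Per2 was not called in this test. At 20 mg its adjusted p was 0.0189 with DESeq2, 0.0127 without a filter, 0.0134 with the mitochondrial share as a covariate and 0.0419 without the 4 libraries of low share, so its call depends on the method. It was singled out after its values were seen. A difference between the clock genes and the temperature genes was not tested.

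**Figure D5:**
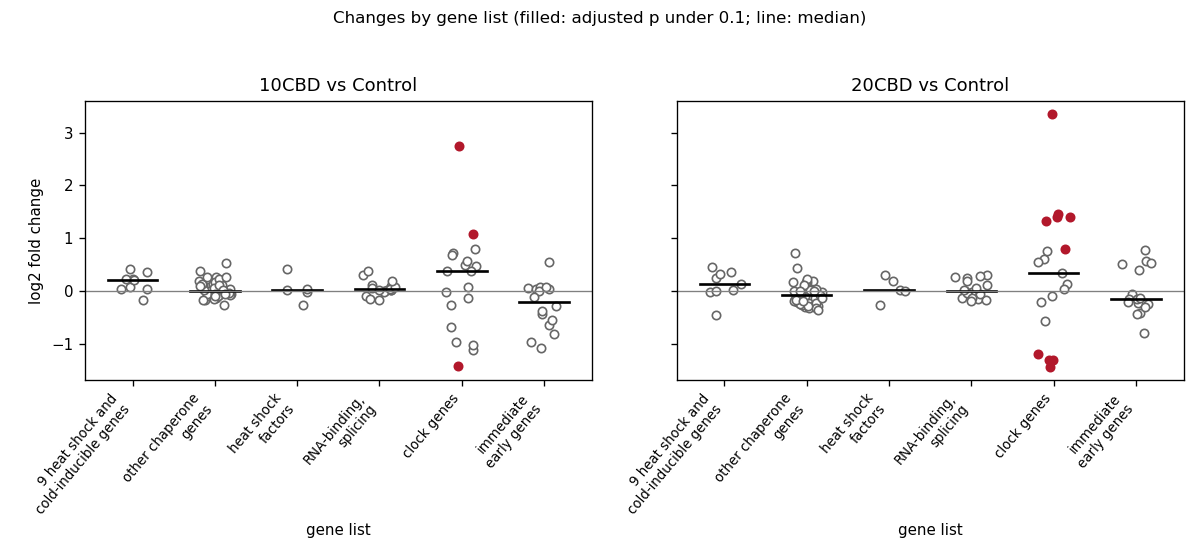
Log2 fold change (y axis) of the single genes (circles) of the members and of the lists of other chaperones, heat shock factors, RNA-binding and splicing genes, clock genes and immediate early genes (x axis) at 10 mg and at 20 mg against the Control group; filled circles have an adjusted p under 0.1 and lines are medians. Filled circles are found among the clock genes, 3 at 10 mg and 10 at 20 mg, and in none of the other 5 lists plotted here, which leave out the cell type markers.

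Of 16 immediate early genes, which respond to stimulation and handling of cells within minutes, 0 were called in each comparison. At an unadjusted p under 0.05 in edgeR there were 4, 3 and 5, beside 5.67%, 8.45% and 6.31% of all genes. The smallest p was that of Ier3 at 10 mg (log2 fold change -0.55 ± 0.15, adjusted p = 0.679) and of the phosphatase gene Dusp1 at 20 mg (0.53 ± 0.18, adjusted p = 0.404). Among the markers of kidney segments and other cell types, Slc5a2, the glucose transporter of the proximal tubule, fell at 20 mg (-0.61 ± 0.12, adjusted p = 0.0820) and the smooth muscle myosin gene Myh11 rose (0.71 ± 0.14, adjusted p = 0.0760). Smooth muscle genes summed to 182 to 196 CPM in the Control group, 185 to 257 CPM in the 10CBD group and 217 to 307 CPM in the 20CBD group, and all 7 tested were higher at 20 mg. Perirenal fat genes summed to 103 to 283 CPM, 71.8 to 145 CPM and 71.0 to 121 CPM, and all 7 tested were lower at both doses, with 0 called. At an unadjusted p under 0.05 in edgeR there were 5 at 10 mg and 7 at 20 mg, beside 5.67% and 8.45% of all genes. Their median log2 fold change was -1.63 and -2.99. Fabp4 had the largest part in the sum, with a mean of 149 CPM in the Control group and 89.2 CPM in the 20CBD group. Adipoq had 11.3 and 1.04 CPM. Adipoq, Plin1, Cfd and Ucp1, defining genes of fat, had 0 counts in at least 1 library. The sums for the thick ascending limb, collecting duct, endothelium and immune cells overlapped between all groups, with 0 genes called in these lists. The part of these cell types in the levels of the temperature genes was not tested.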

How the data were processed

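RNA-Seq of kidney was performed on 12 mice, 1 library each. The authors checked reads with FastQC 0.11.9, trimmed and filtered them in Flexbar, aligned them by STAR 2.7.5c to GRCm39 and counted them with HTSeq 1.99.2 (versions from the submitters' processing notes and the study's methods); the annotation release, strand setting and use of molecular identifiers are not given in the sources used here. The deposited files hold raw counts per Ensembl gene, without normalization. Their 5 summary lines were left out. Of genic, unassigned and ambiguous reads, 12.1% to 19.9% were assigned to no gene and 4.72% to 5.29% fitted several genes. No pair of libraries was identical. Symbols, positions and the lengths of canonical transcripts came from GENCODE vM39, which held 99.0% of the identifiers. Without strand information, reads of Cirbp, Hsp90aa1, Hspa1a, Hspa8, Hsph1 and Rbm3 cannot be told from those of annotated genes that overlap them on the other strand.

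Genes were kept by filterByExpr, normalized by TMM and tested in edgeR 4.0.16 (R 4.3.3) by the quasi-likelihood test in 1 model of 3 groups, with Benjamini-Hochberg adjustment over 17163 genes and a threshold of 0.1, the one used in the study. Intervals are 95%. Single genes were also compared by exact two-sided permutation tests, and correlations of log2 CPM (prior count 2) by permutation tests with 100000 resamples, exact ones in 8 libraries. The procedure was tested on simulated data. All members were named in every comparison, with the 3 genes most like each by r, and from each other list every called gene and the gene of smallest p at each dose. Members and lists were chosen with earlier results of these data known. Alternatives were RLE and upper-quartile normalization, DESeq2 1.42.0, limma-voom (limma 3.58.1), no filter, a minimum of 10 counts per library, separate models for each pair of groups, a replicate block, 3 treatments of the mitochondrial share, removal of mitochondrial and ribosomal RNA genes, a threshold of 0.05 and each library left out. Nothing in the labels says that mice with the same number share a litter, cage or day.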

Additional observations from a re-analysis of the deposited data

Results flagged for a closer look

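Hspa1b in 10CBD replicate 4 stood apart from its group, at 16.3 CPM, while the 3 other mice of the 10CBD group had between 6.51 and 7.69 CPM. The gap to the nearest mouse was 0.879 of the range of the group, above the 95% critical value of Dixon's test for 4 samples. Chance gives such a gap in about 1 of 20 groups, and 27 groups of members were examined. The same mouse had the highest Hspa1a of all 12, at 6.28 CPM, a gene that shares much of its sequence with Hspa1b, and a mitochondrial share of 15.3%.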

How the results depend on the processing

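Of 324 member values recomputed under alternatives other than a library left out, 310 kept their direction and their side of the threshold, 12 changed direction and 2 passed the threshold. The latter gave 2 called members at 20 mg with the mitochondrial share as a covariate, Hsph1 and Cirbp, instead of 0, and 0 members were called under every other alternative. The cause was not tested.

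Log2 fold changes that changed direction were, without the 4 libraries of low mitochondrial share, those at 10 mg of Hsph1 (-0.17), Hspa8 (-0.019) and Hsp90aa1 (-0.35), at 20 mg of Dnajb1 (-0.0062) and between the doses of Hsp90aa1 (0.083). With the share as a covariate they were Hsp90aa1 at 10 mg (-0.15), at 20 mg (0.033) and between the doses (0.18), and Dnajb1 at 20 mg (-0.0061). With the share as a factor Hsp90aa1 was -0.063 at 10 mg, with at least 10 counts in every library it was 0.0030 at 20 mg, and with limma-voom Cirbp was -0.027 between the doses. None of these passed the threshold. Without the 4 libraries, 0 pairs of members were correlated after adjustment instead of 2, with 8 mice.

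With each library left out, 295 of 324 member values kept their direction and 29 changed it, and 0 passed the threshold. At 10 mg the log2 fold changes then ranged from -0.011 to 0.41 for Hspa1a, from -0.059 to 0.49 for Hspa1b, from -0.047 to 0.11 for Hsph1, from -0.049 to 0.11 for Hspa8, from -0.14 to 0.39 for Hsp90aa1 and from -0.0062 to 0.14 for Dnajb1. At 20 mg they ranged from -0.048 to 0.29 for Hspa1a, from -0.11 to 0.046 for Hspa8, from -0.30 to 0.16 for Hsp90aa1 and from -0.059 to 0.086 for Dnajb1. Between the doses they ranged from -0.29 to 0.13 for Hspa1a, from -0.25 to 0.31 for Hspa1b, from -0.13 to 0.0051 for Hspa8, from -0.52 to 0.13 for Hsp90aa1, from -0.42 to 0.23 for Cirbp and from -0.035 to 0.20 for Rbm3.

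Counts of called genes over the whole table at 10 mg, at 20 mg and between the doses were 5, 52 and 0. They were 40, 182 and 12 with DESeq2, 331, 416 and 256 without a filter, 13, 935 and 29 with the share as a covariate, 12, 293 and 0 with it as a factor and 26, 107 and 0 without the 4 libraries. With a library left out they ranged from 2 to 8 at 10 mg and from 14 to 54 at 20 mg, where they were 14 without Control replicate 1, 2 or 4, 32 without Control replicate 3, and 19, 29 and 25 without 20CBD replicate 2, 3 and 4. With the replicate number as a block, 0 members and 4, 27 and 0 genes were called, and correlations of same-numbered mice ranged from -0.330 to 0.317, with 3 of 12 libraries closest to their own number, so that the numbers were not taken as pairs. With 4 mice a group, the 95% intervals of the members are wide, as for Cirbp at 20 mg, from -0.25 to 1.16 on the log2 scale.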
